A study of Mus musculus with 8 samples.

Results

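Lectin genes of the regenerating islet-derived (Reg) family were followed across the epithelial cell classes of the mouse small intestinal crypt and between knockout and control cells. They were Reg1, Reg3a, Reg3b, Reg3g and Reg4, chosen by their symbols, and they make up 5 of the 27998 genes in the deposited matrices. The family also had rows for Reg2 and Reg3d. Reg genes encode small secreted proteins with a C-type lectin fold. Reg3b and Reg3g are released into the gut lumen by enterocytes and Paneth cells, act against bacteria, and are known to be induced by microbial signals through Toll-like receptors and by interleukin-22. Reg1 is named for its link to regenerating tissue, and Reg4 is known from enteroendocrine and other secretory cells of the gut.

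The cells were EpCAM-positive epithelial cells sorted from the crypts of female C57BL/6-background mice aged 10 weeks. The KO group lacked ieCtnnb1, an intestinal enhancer of Ctnnb1, which encodes beta-catenin of the Wnt pathway. The group labelled WT came, per the study's methods, from reporter mice that carry the core of the same enhancer with the Shh promoter and a LacZ-iCre cassette at the H11 locus, so these controls were not plain wild-type animals. The labels list 4 samples in each group, but the values came as 1 matrix per group with cells of several animals pooled and no mark of the animal. Each group was therefore 1 sample. No difference between KO and WT could be tested against the spread between animals, and every interval below is a 95% interval for counting error only.

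Values were UMI counts, where a UMI (unique molecular identifier) tags a single captured transcript near its 3′ end. The WT matrix held 134876816 UMIs in 15987 barcodes and the KO matrix 123794575 UMIs in 12763 barcodes. After removal of cells with fewer than 200 genes or more than 30% mitochondrial UMIs, 13095 WT cells (median 6675 UMIs) and 8658 KO cells (median 8691.5 UMIs) remained. The matrices shared 57 barcodes, 29 of them among kept cells. Ctnnb1, whose coding region is intact in KO mice, was at 119 CPM in WT and 91.8 CPM in KO (log2 ratio −0.37, −0.41 to −0.34). CPM are UMIs of a gene scaled so that all genes of a matrix or class sum to the same fixed total, and the log2 ratio is that of KO to WT throughout, with 1 standing for a 2-fold difference. Cells were gated by marker genes that include no Reg gene into 8 classes, which are crypt base columnar (CBC-like), transit-amplifying (TAC-like), Paneth (PC-like), goblet (GC-like), enteroendocrine (EEC-like), tuft (TC-like), immature enterocyte (imEC-like) and mature enterocyte (mEC-like). The gates took in 79.5% of WT and 67.4% of KO cells. Between 4 and 9 of the first 10 genes of every class by fold were its own markers, except in WT PC-like cells with 3, where other defensin genes filled the list. The 10 immune markers summed to at most 45.3 CPM in any WT class and 5.91 CPM in any KO class, and the highest values were in TC-like cells. Paneth cell transcripts were found in every class. In mEC-like cells the median summed level of 10 Paneth markers was 32803 CPM in WT and 24040 CPM in KO, beside 37186 and 72267 CPM of their own 12 markers. In TC-like cells it was 52277 and 18179 CPM. The part of free RNA and of doublets in this was not tested.

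In build GRCm38 (GENCODE M21), 6 Reg genes lie side by side on chromosome 6 in 98.2 kb with no other annotated gene between them. Reg3b (ENSMUSG00000071356) is at chr6:78370657-78373466, Reg3a (ENSMUSG00000079516) at chr6:78380709-78383827 and Reg1 (ENSMUSG00000059654) at chr6:78422711-78428667, all on the plus strand. Reg3g (ENSMUSG00000030017) closes the cluster on the minus strand at chr6:78466269-78468872. Reg3d and Reg2 lie between them. Reg4 (ENSMUSG00000027876) is alone on chromosome 3, at chr3:98222156-98236748 on the plus strand. No annotated gene overlaps any of the 5. Reads could be told apart between the members, since of all stretches of 31 bases in their transcripts only 5, shared by Reg3b and Reg3g, occurred in more than 1 member.

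Reg3b and Reg3g were the members that moved together most closely, so the 170 bases before their RefSeq start sites are shown here, with those of Reg4, which moved the other way (all 5′ to 3′ on the strand of the gene, from RefSeq, build GRCm38.p6). The stretches are chr6:78370715-78370884 for Reg3b on the plus strand, chr6:78468875-78469044 for Reg3g on the minus strand and chr3:98221986-98222155 for Reg4 on the plus strand. The GENCODE gene of Reg3b starts at 78370657, upstream of this stretch, so the whole stretch lies within the annotated gene. The end of the Reg3b stretch falls in the first exon of a GENCODE transcript that starts further upstream than the RefSeq one. Capitals mark TATAAA, the core of a TATA box, on either strand and TTCNNNGAA, the palindrome bound by STAT factors.
Reg3b: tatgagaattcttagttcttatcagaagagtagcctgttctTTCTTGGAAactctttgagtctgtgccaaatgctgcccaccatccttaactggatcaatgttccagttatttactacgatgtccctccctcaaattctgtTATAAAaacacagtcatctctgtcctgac
Reg3g: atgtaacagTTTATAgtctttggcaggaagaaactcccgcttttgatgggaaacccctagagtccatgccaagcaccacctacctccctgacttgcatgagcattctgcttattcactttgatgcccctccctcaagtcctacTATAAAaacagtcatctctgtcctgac
Reg4: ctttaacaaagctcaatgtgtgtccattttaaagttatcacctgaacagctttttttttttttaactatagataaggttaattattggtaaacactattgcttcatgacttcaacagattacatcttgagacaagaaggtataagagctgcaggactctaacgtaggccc
The Reg3b and Reg3g stretches were identical at 116 of 168 aligned bases (69.0%). The share was higher for Reg3a with Reg3g (93 of 120, 77.5%) and for Reg1 with Reg2 (112 of 154, 72.7%). Fewer bases were aligned and fewer were identical in those pairs, since the share leaves out gaps. It was 62.0% (88 of 142) for Reg3b with Reg4. The Reg3b and Reg3g stretches end in the same run of bases after the TATA motif. That motif was found on the gene's own strand at −29 in Reg3b and −27 in Reg3g, counted from the start site, and on the other strand at −161 in Reg3g. It occurred in 8.40% of 32843 promoter stretches of this length, and in 3.50% when only the last 50 bases were counted. Reg1 and Reg2 also held it, at −30, and Reg3a and Reg3d lacked it. Over all kept cells Reg1 was lower in KO and Reg3a higher. Whether the motif bears on the ratios was not tested. The STAT palindrome occurred in 4.61% of all stretches, and in Reg3b at −129. The Reg4 stretch held neither. The 7 Reg genes with a row all had a promoter in the table, and these matches describe letters only.

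Over all kept cells, Reg3b rose from 1387 to 7542 CPM and Reg3g from 1449 to 4004 CPM between WT and KO. Reg3a was at 35.9 CPM in WT and 78.7 CPM in KO, Reg1 at 328 and 254 CPM, and Reg4 at 671 and 309 CPM. The log2 ratios of KO to WT were 2.44 (2.44 to 2.45) for Reg3b, 1.47 (1.46 to 1.47) for Reg3g, 1.13 (1.08 to 1.18) for Reg3a, −0.37 (−0.39 to −0.35) for Reg1 and −1.12 (−1.13 to −1.10) for Reg4. Among the members, 3 were at least 2-fold higher and 1 at least 2-fold lower, where 3.94% of 12767 genes with at least 50 UMIs were 2-fold higher and 7.37% were 2-fold lower. Reg3b ranked 24th from the top. Together the 5 genes took 0.387% of all UMIs in WT and 1.22% in KO. Since these totals mix classes whose shares differ between the matrices, the levels were next read class by class. In the totals, more enterocytes and more transcripts per enterocyte cannot be told apart.

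**Figure D1:**
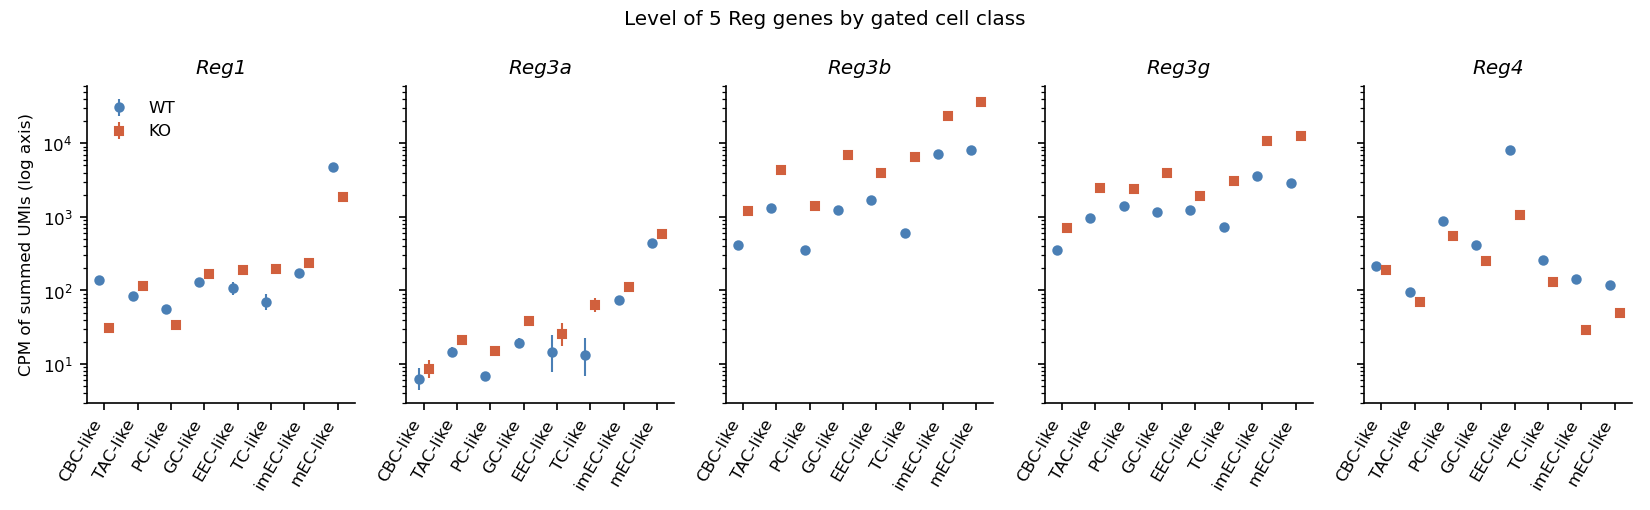
Level of each Reg gene (CPM from all UMIs of a class, log axis) in the 8 gated classes, WT as blue circles and KO as orange squares, with bars for the 95% counting interval where it exceeds the symbol. Reg1, Reg3a and Reg3b peak in mEC-like cells in both matrices, Reg4 peaks in EEC-like cells, and the KO points for Reg3b lie above the WT points in every class.

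Enterocytes held the highest levels of the antibacterial lectins. Reg3b was at 8028 CPM (7958 to 8100) in WT mEC-like and 7187 CPM in WT imEC-like cells. It followed at 1685 CPM in EEC-like, 1321 in TAC-like, 1242 in GC-like, 607 in TC-like, 416 in CBC-like and 359 CPM in PC-like cells, with no overlap of intervals between neighbours in that order. In KO the order began with mEC-like (35847 CPM) and imEC-like cells (23124 CPM) and went on with GC-like (6861), TC-like (6583), TAC-like (4268), EEC-like (3935), PC-like (1415) and CBC-like cells (1200 CPM). Enterocytes were thus at the top in both matrices, and TC-like cells, below EEC-like, TAC-like and GC-like cells in WT, lay next to GC-like cells in KO. The 5 genes together made up 1.63% of all UMIs of mEC-like cells in WT and 5.09% in KO.

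Reg3g was spread more evenly over the classes of WT, its top level being 4.97 times that of TC-like cells, against 13.2 times for Reg3b. In WT it was highest in imEC-like cells at 3627 CPM, then in mEC-like (2908), PC-like (1395), EEC-like (1253), GC-like (1164), TAC-like (974), TC-like (729) and CBC-like cells (356 CPM), and only EEC-like and GC-like cells had overlapping intervals. PC-like cells thus came next to the enterocytes in WT, although they were lowest for Reg3b. In KO mEC-like cells were at 12517 CPM and imEC-like cells at 10650 CPM, ahead of GC-like (3975), TC-like (3046), TAC-like (2479), PC-like (2383), EEC-like (1913) and CBC-like cells (716 CPM).

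The count of Reg3g UMIs per Reg3b UMI, which compares the classes with each other rather than the genes, put this difference in 1 value. It was 3.89 (3.84 to 3.94) in WT PC-like cells and between 0.362 (mEC-like) and 1.20 (TC-like) in all other WT classes. In KO it was 1.68 (1.67 to 1.70) in PC-like cells and between 0.349 in mEC-like and 0.597 in CBC-like cells elsewhere. PC-like cells stood apart in both matrices. The part of free RNA in these ratios was not tested. In enterocytes the ratio was close between the matrices, at 0.362 and 0.349 in mEC-like and 0.505 and 0.461 in imEC-like cells, whereas it fell in KO in all 6 other classes.

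**Figure D2:**
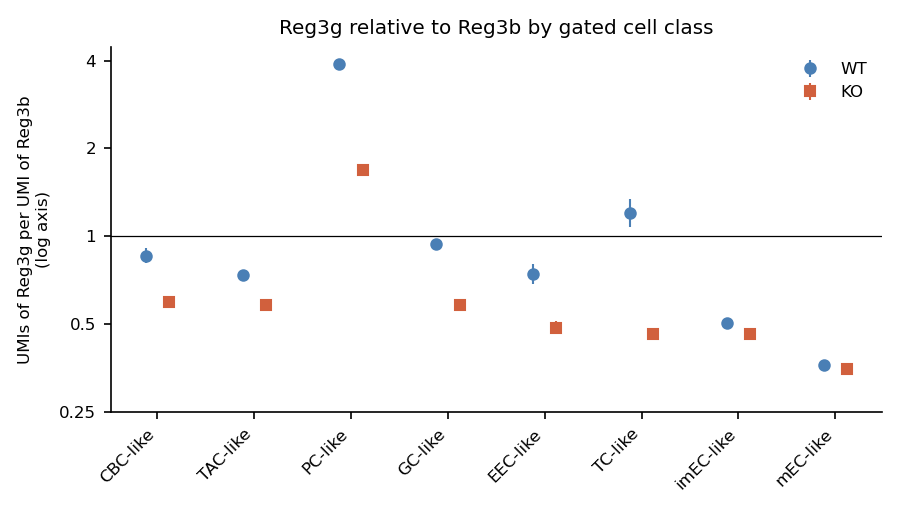
UMIs of Reg3g per UMI of Reg3b (log axis) in each gated class, WT as blue circles and KO as orange squares, with 95% counting intervals. PC-like cells lie at 3.89 in WT and 1.68 in KO, above the line of equal counts, and mEC-like cells lie lowest in both matrices.

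Reg3b was at least 2-fold higher in KO in 8 of 8 classes. The log2 ratio in mEC-like cells was 2.16 (2.15 to 2.17), a 4.47-fold difference, with a span over classes of 1.22 (EEC-like) to 3.44 (TC-like). Among mEC-like cells 2 members were 2-fold higher and 2 were 2-fold lower, beside 2.6% and 18.9% of 8631 genes tested there. In 3 classes few genes moved up as far. In CBC-like cells Reg3b and Reg3g were 2 of 5 members called higher beside 0.375% of 9323 genes, in TAC-like cells 2 of 5 beside 0.538% of 10411 genes, and in imEC-like cells 2 of 5 beside 0.746% of 8845 genes. Reg3b ranked 4th, 14th and 8th from the top in these classes. For PC-like and GC-like cells 2 of 5 members were called higher beside 2.09% and 3.19% of genes, and in EEC-like cells 1 of 4 members tested beside 13.2%. The rise of Reg3b held under other choices in direction, but not always in size. With each matrix clustered by itself it was 2-fold or more in 7 of 8 classes and only 0.27 (0.25 to 0.28) on the log2 scale in imEC-like cells, where WT reached 15809 CPM. The clusters named imEC-like were not alike in the matrices. Their first genes were Fabp6, Mgat4c and Reg3b in WT (395 cells) and Gsdmc4, Car4 and Akr1c19 in KO (534 cells). With genes above 1% of UMIs taken out of the denominator the rise of Reg3b was 0.98 in EEC-like cells.

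Reg3g was higher in KO in 8 of 8 classes, with log2 ratios from 0.61 in EEC-like and 0.77 in PC-like cells to 2.11 (2.08 to 2.13) in mEC-like cells. It was at least 2-fold higher in 6 of 8 classes. With each matrix clustered by itself, it was higher in 7 of 8 classes and 2-fold or more in 4 of 8. The ratio in CBC-like cells was then −0.09 (−0.13 to −0.05) in place of 1.01, and that in imEC-like cells 0.38 in place of 1.55. The imEC-like value again compared unlike clusters. Counted as UMIs per cell, with no correction for depth, Reg3g in mEC-like cells had a mean of 15.2 in WT against 86.4 in KO, and Reg3b had 42.1 against 247. By the median, KO cells were deeper in every class but PC-like cells (5338 and 6988.5 UMIs in mEC-like cells). The ratio per cell was larger than the ratio of CPM in mEC-like cells. It was also larger in PC-like cells, at 1.39 against 0.77 for Reg3g. The median depth was lower there in KO, but the mean depth, which the ratio per cell follows, was higher. PC-like cells held 44123305 UMIs in 1740 KO cells and 73252479 UMIs in 4426 WT cells.

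**Figure D3:**
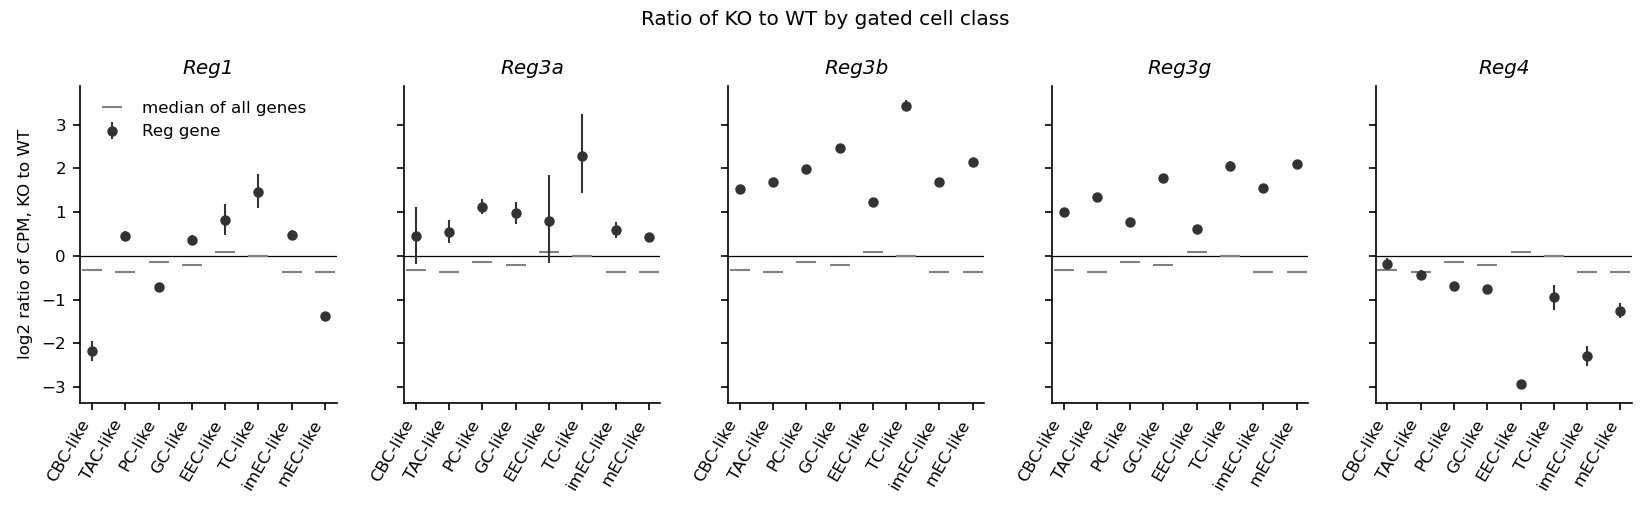
log2 ratio of CPM of KO to WT for each Reg gene by gated class, with 95% counting intervals, and the median over all genes tested in that class as a grey dash. Reg3b and Reg3g lie above 0 in all 8 classes, Reg4 lies below 0 in all 8, and Reg1 lies on both sides.

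The rise was also seen in cells not known as a source of these lectins. TC-like cells, led by the tuft cell genes Dclk1 and Rgs13, were used as the background class. Reg3b was at 607 CPM (560 to 658) there in WT and 6583 CPM (6447 to 6721) in KO. The ratio, 3.44 on the log2 scale, was the highest of 4884 genes. In TC-like cells 4 of 5 members were called higher, beside 4.22% of genes, and none lower, beside 11.5%. The UMIs were unevenly spread, since the top 10% of TC-like cells held 77.8% of Reg3b UMIs in WT and 76.0% in KO. A floor was present as well. The cell at the 10th percentile had 232 CPM of Reg3b in KO TC-like cells, and 205, 226, 359, 291 and 269 CPM in KO CBC-like, TAC-like, PC-like, GC-like and EEC-like cells, where each of these values was 0 in WT. The share of TC-like cells with a Reg3b UMI, after thinning of every cell to 1000 UMIs, was 30.9% (23.6% to 39.0%) of 149 WT cells and 64.5% (53.9% to 74.2%) of 93 KO cells, and unthinned it was 68.4% and 100%. Medians were 4237 and 12276.5 UMIs per cell. The part of free RNA and of doublets in these values was not tested. In KO only mEC-like, imEC-like and GC-like cells had higher Reg3b than TC-like cells. The KO levels in TAC-like, EEC-like, PC-like and CBC-like cells were below it, so the ratios of those 4 classes describe UMIs found in the class and do not show that its cells express Reg3b. For Reg3g in KO the TC-like level was 3046 CPM. The same 4 classes lay between 716 (CBC-like) and 2479 CPM (TAC-like), so by summed UMIs the ratios of Reg3g there have the same limit. However, the top 10% of KO TC-like cells held 70.0% of the Reg3g UMIs. The median KO cell had 1937 CPM of Reg3g in PC-like and 878 in TAC-like cells, above 705 in TC-like cells. It had 606 in EEC-like and 448 CPM in CBC-like cells. After thinning, Reg3g was found in 78.8% of KO PC-like and 59.1% of KO TC-like cells. In WT only CBC-like cells were below TC-like cells for Reg3g. With the TC-like level subtracted within each matrix, the ratio in mEC-like cells was 1.98 for Reg3b and 2.12 for Reg3g.

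Within mEC-like cells Reg3b was found in most cells of both matrices. After thinning to 1000 UMIs it was found in 73.5% of 1147 WT and 91.8% of 1122 KO cells, with 19 and 242 shallower cells left out, and unthinned in 90.5% and 96.5%. Reg3g was found in 64.0% and 88.0% of the thinned cells. In thinned TC-like cells the share for Reg3g was 29.5% in WT and 59.1% in KO. The median cell had 3003 CPM of Reg3b in WT and 7711 CPM in KO, and the cell at the 90th percentile had 22783 and 81008 CPM. The whole distribution was therefore shifted, and the spread of the cells was wide in both matrices. Across thinned mEC-like cells the Spearman correlation of Reg3b with Reg3g was 0.66 in WT and 0.81 in KO. These are cells of 1 pooled library each, and the values are descriptions.

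Reg3a, a close relative of the antibacterial pair, was also highest in enterocytes. In WT it was at 438 CPM (422 to 455) in mEC-like, 73.9 in imEC-like and between 6.33 and 19.4 CPM in the other classes, where every neighbouring interval overlapped. In KO it was at 591 CPM (576 to 607) in mEC-like, 112 in imEC-like, 63.6 in TC-like and between 8.64 and 38.3 CPM in the rest. The ratio in mEC-like cells was 0.43 (0.37 to 0.50) and did not reach 2-fold. Its direction depended on how cells were averaged. The median mEC-like cell had 239 CPM in WT and 0 in KO, because 34.6% of WT but 50.6% of KO cells had no UMI of it, and the difference of means of log2(CPM + 10) over cells was −0.84. After thinning it was found in 29.5% (26.8% to 32.2%) of WT and 28.3% of KO mEC-like cells. In thinned TC-like cells it was found in 0 of 149 WT cells, with an exact upper limit of 2.45%, and in 4.30% of 93 KO cells. Reg3a was 2-fold higher in TC-like (2.28, from 13 and 86 UMIs) and PC-like cells (1.12), and in PC-like cells its levels of 6.98 and 15.2 CPM were below those of TC-like cells in both matrices.

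Reg1 was the member most confined to mature enterocytes in WT, where mEC-like cells held 68.5% of its UMIs. It was at 4830 CPM (4775 to 4885) in WT mEC-like cells, 68.6 times the TC-like level, at 172 CPM in imEC-like and between 56.6 and 139 CPM in all others. In KO mEC-like cells it was at 1869.5 CPM (1842 to 1897). Its log2 ratio was −1.37 (−1.40 to −1.34), opposite to Reg3b in the same cells. Fewer KO than WT cells held it. Reg1 was found in 58.8% (55.9% to 61.7%) of thinned WT and 21.1% (18.8% to 23.6%) of thinned KO mEC-like cells, and unthinned in 73.0% and 32.7%, beside 10.1% and 9.68% of thinned TC-like cells. The median cell had 1386 CPM in WT and 0 in KO. The top 10% of the cells held 52.8% of Reg1 UMIs in WT and 92.9% in KO. Across thinned cells Reg1 and Reg3b had a Spearman correlation of −0.28 in WT and −0.0010 in KO.

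Outside mature enterocytes Reg1 was higher in KO in 5 classes, with log2 ratios from 0.37 in GC-like to 1.47 (1.09 to 1.87) in TC-like cells, and lower in PC-like (−0.72) and CBC-like cells (−2.18, −2.42 to −1.95). In KO only mEC-like and imEC-like cells lay above the TC-like level of 195 CPM. EEC-like (188), GC-like (169) and TAC-like cells (117 CPM) did not, so their ratios do not show that these cells express Reg1. The UMIs were concentrated in some of the cells. In CBC-like cells 745 WT UMIs gave 139 CPM and 198 KO UMIs gave 30.6 CPM, and the top 10% of WT cells held 88.1% of the UMIs. With each matrix clustered by itself the CBC-like ratio was −0.15 (−0.35 to 0.05), the GC-like ratio was 1.63, and the imEC-like ratio was 4.21, from 37.8 CPM in WT and 697 CPM in KO. The imEC-like value compared clusters with different first genes, as given above. In the gated CBC-like cells 1 member, Reg1, was called lower beside 14.5% of genes.

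**Figure D4:**
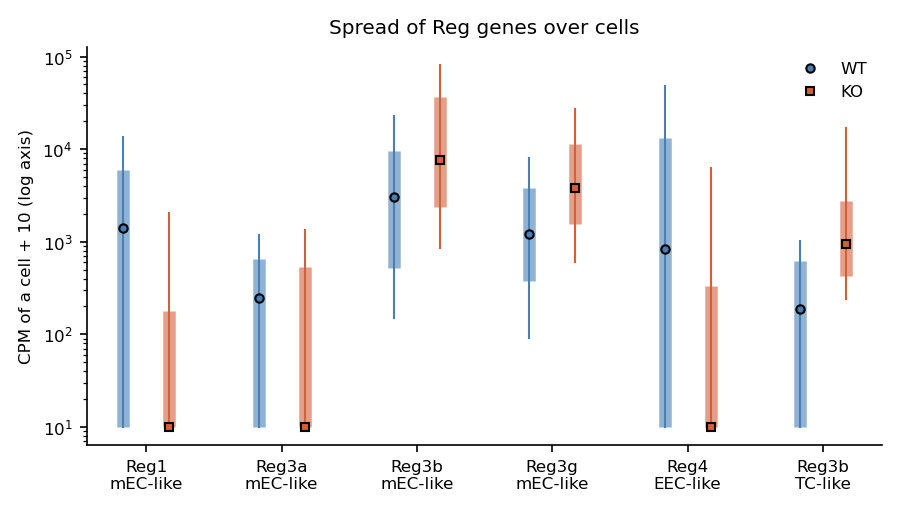
CPM per cell plus 10 (log axis) for 4 Reg genes in mEC-like cells, Reg4 in EEC-like cells and Reg3b in TC-like cells, WT blue and KO orange. Symbols are medians, thick bars run from the 25th to the 75th and thin lines from the 10th to the 90th percentile of cells, and the KO median sits at the floor for Reg1, Reg3a and Reg4.

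Mature enterocytes differ along the length of the small intestine, with bile acid uptake and the carrier Fabp6 at the distal end and iron and calcium handling at the proximal end, and both groups of genes differed between the matrices. All 7 distal genes tested were higher in KO mEC-like cells, 6 of them 2-fold or more, beside 2.6% of all genes. Their median log2 ratio was 1.89, beside −0.38 over all genes. Fabp6, an ileal bile acid binding protein, went from 2160 to 18015 CPM (3.06), and Slc10a2, the bile acid importer, from 13.7 to 159 CPM (3.53). Of 8 proximal genes tested 5 were 2-fold or more lower, beside 18.9% of all genes, with a median of −1.64. S100g, a calcium binding protein, went from 533 to 113 CPM (−2.24), and Onecut2 from 175 to 36.1 CPM (−2.28). Fabp6 and Lct are also among the markers of the mEC gate, and Fabp1 is in both the proximal list and the gate. Distal-leaning cells, those with a higher score for the distal than the proximal list, were 164 of 1166 (14.1%) in WT and 861 of 1364 (63.1%) in KO. Whether this is a difference between the genotypes or in the stretch of intestine that the pooled cells came from cannot be told apart here.

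The Reg genes were therefore read within each part. Among distal-leaning cells Reg3b was at 18203 CPM in WT and 40697 CPM in KO (log2 ratio 1.16, 1.14 to 1.19). Among proximal-leaning cells it was at 6676 and 29644.5 CPM, a ratio of 2.15 (2.13 to 2.17). Reg3g was at 6239 and 14749 CPM in distal-leaning cells (1.24, 1.20 to 1.29) and at 2466 and 9662 CPM in proximal-leaning cells (1.97). Reg3b and Reg3g were thus higher in distal-leaning than in proximal-leaning cells within each matrix, and higher in KO within each part. The parts were not equal between the matrices, since distal-leaning cells had 19143 CPM of the summed distal list in WT and 34852 CPM in KO.

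Reg1 lay the other way round, highest in proximal-leaning cells. It was at 5349 CPM in proximal-leaning and 925 CPM in distal-leaning WT cells, and at 3921 and 265 CPM in KO. Its ratio was −0.45 (−0.48 to −0.42) in proximal-leaning cells, where the mean UMIs per cell were 28.8 in WT and 32.2 in KO, and −1.80 (−1.93 to −1.66) in distal-leaning cells. The fall over all mEC-like cells was thus much smaller in the proximal-leaning part. The mean per cell did not fall there, but it is not corrected for depth. Proximal-leaning cells had a median of 5470.5 UMIs in WT and 8791 UMIs in KO. Reg3a was at 456 and 804 CPM in proximal-leaning (0.82) and at 304 and 425 CPM in distal-leaning cells (0.48).

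**Figure D5:**
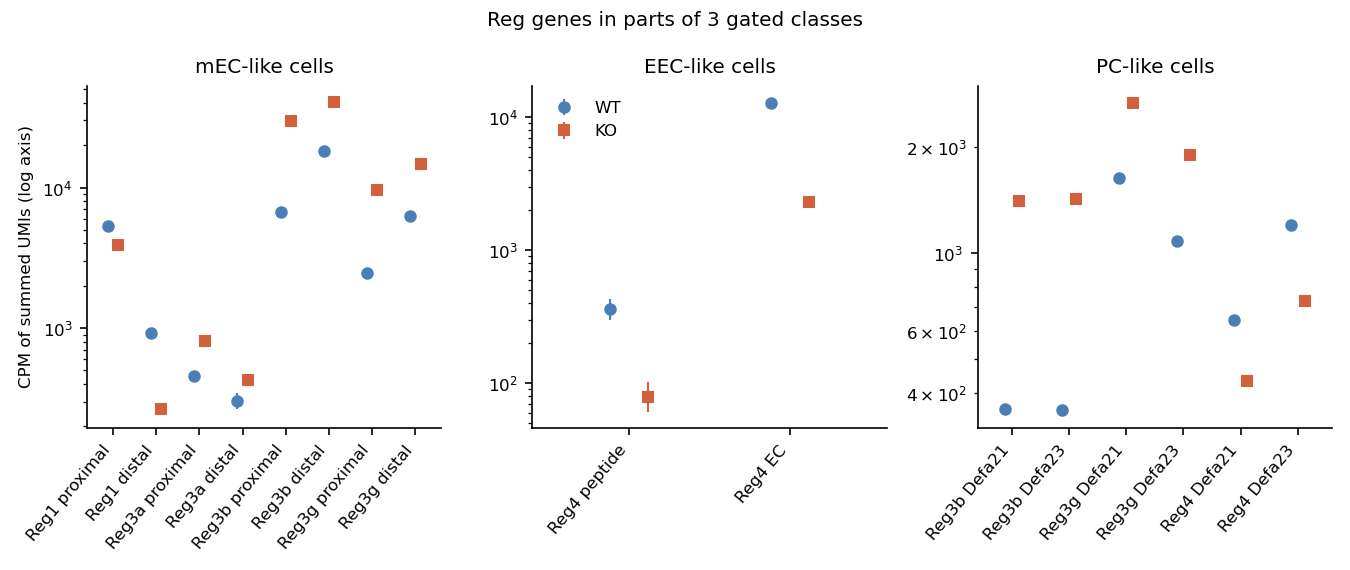
CPM of summed UMIs (log axis) of Reg genes in proximal-leaning and distal-leaning mEC-like cells, in peptide-hormone-leaning and enterochromaffin-leaning (EC) EEC-like cells, and in Defa21-leaning and Defa23-leaning PC-like cells, WT as blue circles and KO as orange squares with 95% counting intervals. KO lies above WT for Reg3b and Reg3g in each part shown and below WT for Reg1 in mEC-like cells and for Reg4.

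Reg4 belonged to the secretory classes. In WT it was at 8132 CPM (7946 to 8321) in EEC-like cells, followed by PC-like (888) and GC-like cells (416), and then at 255 CPM for TC-like, 212 for CBC-like, 143 for imEC-like, 117 for mEC-like and 94.5 for TAC-like cells. Only EEC-like, PC-like and GC-like cells lay above the TC-like level. Although EEC-like cells had the highest level, they held 8.24% of its UMIs, because they were few. In KO it was at 1056 CPM (1001 to 1113) in EEC-like cells, followed by PC-like (548), GC-like (248), CBC-like (188) and TC-like cells (132). The log2 ratio was −2.95 (−3.03 to −2.86) in EEC-like cells, the 21st lowest of 4826 genes, and 1 of 4 members tested was called lower there beside 13.1% of genes.

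EEC-like cells were few, at 218 in WT and 91 in KO, and their depth differed most, with medians of 2717 and 12972 UMIs. Reg4 UMIs per cell were 33.3 in WT and 15.1 in KO (log2 ratio −1.14). Among EEC-like cells of 5000 to 20000 UMIs, a range added after the depths had been seen, it was −1.65. After thinning, Reg4 was found in 52.6% (45.3% to 59.7%) of 196 WT and 23.3% (14.8% to 33.6%) of 86 KO cells, beside 19.5% and 9.68% of thinned TC-like cells. The cells were also of different kinds. Enterochromaffin-leaning cells, which make serotonin and express Chga, Tac1 and Tph1, were 155 of 218 in WT and 48 of 91 in KO, and held nearly all the Reg4. In them Reg4 was at 12844 CPM in WT and 2299 CPM in KO (−2.48, −2.57 to −2.40), at 46.1 and 27.4 UMIs per cell. In peptide-hormone-leaning cells, which express Cck, Gip and Gcg among others, it was at 362 and 79.7 CPM (−2.18). The summed enterochromaffin genes themselves were at 11795 CPM in WT and 4368 CPM in KO within the enterochromaffin-leaning cells, so those cells were not alike in both matrices.

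Elsewhere Reg4 was lower in KO by smaller amounts. Its ratio was −0.70 (−0.72 to −0.68) for PC-like and −0.75 for GC-like cells, then −0.95 in TC-like, −1.25 in mEC-like and −2.28 in imEC-like cells, and for CBC-like and TAC-like cells it was −0.18 (−0.30 to −0.06) and −0.44, where the median of all genes was −0.33 and −0.37. In PC-like cells, 0 of 5 members were called lower beside 8.61% of genes, in GC-like cells 0 beside 13.6%, in TAC-like cells 0 beside 16.6%, and in imEC-like cells 1 beside 19.7%. In some of these classes the direction depended on the correction for depth. Counted as UMIs per cell, Reg4 was higher in KO CBC-like (0.55), TAC-like (0.56) and GC-like cells (0.62), and within counting error in TC-like cells. In PC-like cells, which held most Reg4 UMIs in WT (65084 of 88103), it stayed lower per cell, at −0.08 (−0.10 to −0.06). With each matrix clustered by itself all 8 ratios of CPM were below 0, and that of CBC-like cells was −3.20.

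The secretory classes were not uniform in Reg genes. Among PC-like cells of WT, those leaning to Defa21 had 1640 CPM of Reg3g and 644 CPM of Reg4, and those leaning to Defa23 had 1080 and 1203 CPM. In KO these values were 2681 and 432 CPM, and 1906 and 732 CPM. Reg3g was therefore higher in Defa21-leaning and Reg4 in Defa23-leaning cells in both matrices, while Reg3b was nearly level between them, at 359 and 358 CPM in WT and 1408 and 1426 CPM in KO. Among GC-like cells, the few with low Zg16 and Clca1 (85 in WT, 68 in KO) had 2085 and 1050 CPM of Reg4, against 328 and 177 CPM in those with high Zg16 and Clca1. Reg3b was lower in them, at 503 and 1455 CPM against 1281 and 7339 CPM. Zg16 and Clca1 are products of mature goblet cells.

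Reg2 and Reg3d were nearly absent. Reg2 had 3 UMIs in all WT and 2 in all KO cells, and Reg3d had 18 and 36.

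Other genes of the same defence program were read in mEC-like cells. Of 8 inducible host defence genes tested, 5 were at least 2-fold higher in KO and 1 was lower, where 2.6% of all genes were higher and 18.9% were lower. The same shares apply to the lists that follow in mEC-like cells. Saa1, a serum amyloid A, went from 13.1 to 195 CPM (3.90), Duoxa2, the maturation factor of a hydrogen peroxide generating oxidase, from 7.36 to 59.8 CPM (3.02), Duox2, that oxidase, from 15.1 to 38.1 CPM (1.34), Nos2, inducible nitric oxide synthase, from 8.83 to 39.6 CPM (2.17) and Sprr2a3 from 20.0 to 105 CPM (2.39). Pigr, which carries immunoglobulin A across the epithelium, went from 3834 to 1317 CPM (−1.54). In imEC-like cells 1 of 9, Duoxa2 (1.12), was higher, beside 0.746% of all genes. There 3 were lower, beside 19.7%, namely Retnlb (−4.62), Duox2 (−1.11) and Nos2 (−1.06). Saa1 was at −0.99 there, short of 2-fold. The list had a median of 1.75 in mEC-like and −0.97 in imEC-like cells, beside −0.38 and −0.36 over all genes.

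A list of signalling genes, which holds receptors and transducers but also a feedback target and a cytokine, was read in the same way. Of 10 genes of interleukin-22, interleukin-17 and Toll-like receptor signalling tested in mEC-like cells, 0 were 2-fold higher and 1, Traf6, was lower (−1.26). Their median was −0.37, beside −0.38 over all genes. Stat3 was at 52.7 CPM in WT and 32.1 CPM in KO (−0.72), and Socs3, a feedback target of STAT3, at 3.60 and 4.57 CPM (0.34, −0.43 to 1.16). Il22ra1, Tlr2, Tlr4, Tlr5, Nod2 and Extl3 had too few UMIs to be tested in mEC-like cells. Over all kept cells 1 of 15 genes of this list was 2-fold higher and 2 were lower, beside 3.94% and 7.37% of all genes. Il22ra1, a subunit of the interleukin-22 receptor, had 184 UMIs in WT and 35 in KO (−2.23), Tlr5, the flagellin receptor, had 61 and 13 (−2.07), and the cytokine Il18 was at 1.08. Il18 was also 2-fold higher in imEC-like cells (1.38). Of 5 genes of MHC class II antigen presentation in mEC-like cells, H2-Aa (1.32) and Cd74 (1.14) were 2-fold higher and Ciita (−1.08) was lower. Of 7 immediate early genes, which respond to cell dissociation as well, 5 were lower in mEC-like cells, among them Egr1 (−2.84) and Fosb (−2.44), with a list median of −1.53.

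Median ratios differed with transcript length, and most Reg transcripts are short. Among genes whose summed exon length was within 0.5 log2 units of the member's, the median log2 ratio in mEC-like cells was 0.20 for Reg3b (656 genes) and 0.04 for Reg3g (1852 genes), and 14 and 26 of these genes had a ratio as high. For Reg1 it was 0.26 (383 genes), and 9 had a ratio as low. For Reg3a it was 0.28, against its own 0.43. In EEC-like cells the median beside Reg4 was 0.86 (364 genes), and 3 had a ratio as low.

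Genes with the most similar pattern to each member were taken over 16 points, the 8 classes in both matrices, among 4310 genes with enough UMIs, by Pearson correlation of log2(CPM + 10). For Reg1 these were Adh6a (0.96), Gsta1, Alpi, Rbp2 and Slc25a45, and for Reg3a Nat8 (0.99), Slc26a6, Il18, Mogat2 and Dpep1. For Reg3b they were Slc51a (0.93), Sult2b1, Lgals3, Car4 and Tm6sf2, and for Reg3g Reg3b itself (0.92), Fabp6, Slc51a, Ppfia3 and Slc51b. Reg4 was nearest to Pla2g2f (0.97), Rasd1, Slc18a1, Upb1 and Ptprn2. Between members, Reg1 and Reg3a stood at 0.91 and Reg1 and Reg3g at 0.55, and Reg4 was negative with the other 4, from −0.51 to −0.37. The points of a matrix share a library, and Alpi and Fabp6 are class markers.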

How the data were processed

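The authors deposited 1 matrix of raw UMI counts per genotype, made with Cell Ranger on mm10. The file headers name version 4.0.0 and the submitters' processing notes version 2.1.1. Whether counting used strand is not given in the sources used here. The 4 labelled samples of a group were pooled in its matrix. Cells with at least 200 genes and at most 30% mitochondrial UMIs were kept, which left more cells than the study states. Each cell was gated by scores of marker genes, without Reg genes. Scrublet called 1 WT and 0 KO cells, so it had not worked and doublets were left in. UMIs were summed by class and matrix, and genes with at least 50 UMIs over both matrices were tested against a 2-fold threshold. With 1 sample per group no p-value was computed. Intervals are exact Poisson intervals for levels, exact binomial (Clopper-Pearson) intervals for shares and exact conditional intervals for ratios. Shares of cells used each cell thinned to 1000 UMIs. Likeness used genes with at least 50 UMIs in each matrix and 50 CPM in 1 class.

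Named genes were the 5 members, genes of fixed lists (Reg genes, interleukin and Toll-like receptor signalling, host defence, distal and proximal enterocyte, MHC class II, immediate early) and the 5 genes most like each member. Some list genes short of 2-fold were named after their values were seen. The members and lists were chosen with earlier results of these data known. The ratios were tested on simulated data. Of the 27998 gene identifiers, 27722 matched the annotation. Python 3.11.15, numpy 2.4.6, scipy 1.17.1, pandas 2.3.3, scanpy 1.11.5, leidenalg 0.10.2 and matplotlib 3.10.9 were used.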

Additional observations from a re-analysis of the deposited data

Results flagged for a closer look

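Reg1 moved in opposite directions in 2 classes far from the enterocytes. Its log2 ratio of KO to WT was 1.47 in TC-like cells and −2.18 in CBC-like cells. The difference between the classes was not tested, since each group was 1 pooled library. With each matrix clustered by itself the values were 1.44 and −0.15. The top 10% of cells held 92.8% of Reg1 UMIs in KO TC-like cells and 88.1% in WT CBC-like cells.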

How the results depend on the processing

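No paired analysis was possible because the matrices do not record the sample of a cell, and for the same reason leaving out a replicate was not run. Of 50 alternative values for the members in their leading classes, 14 moved by less than counting error, 35 moved beyond it and kept their direction, and 1 reversed. The cause was not tested. Values below are log2 ratios in mEC-like cells, and in EEC-like cells for Reg4.

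With a mitochondrial limit of 15%, Reg1 was −1.41, Reg3b 2.20 and Reg3g 2.17. With at least 500 genes per cell Reg3b was 2.19 and Reg3g 2.13. Without the cells of the highest doublet scores (11% of WT and 7% of KO cells) Reg4 was −3.19. These scores came from Scrublet, which had not worked, so this setting cannot show the part of doublets. With each matrix clustered by itself Reg1 was −1.62, Reg3b 2.42, Reg3g 2.36 and Reg4 −2.40. With a stricter gate Reg1 was −1.41, Reg3b 2.27 and Reg3g 2.19. With genes above 1% of UMIs out of the denominator Reg1 was −1.28, Reg3a 0.52, Reg3b 2.20, Reg3g 2.18 and Reg4 −3.19. As means of log2(CPM + 10) over cells Reg1 was −3.78, Reg3a −0.84 (the reversal), Reg3b 1.97, Reg3g 1.90 and Reg4 −3.05. As mean UMIs per cell Reg1 was −0.97, Reg3a 0.83, Reg3b 2.56, Reg3g 2.50 and Reg4 −1.14. With the TC-like level subtracted Reg1 was −1.51, Reg3a 0.31, Reg3b 1.98 and Reg4 −3.09. In cells of 5000 to 20000 UMIs, a range chosen after seeing the data, Reg3a was 0.54, Reg3b 2.25, Reg3g 2.17 and Reg4 −1.65. Of 50 other values of the members, 38 moved beyond counting error and 12 did not. Depth limits Reg3a outside enterocytes and every member in EEC-like and TC-like cells, where few cells were caught.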
